A study of Carassius auratus with 6 samples.

Results

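Small leucine-rich proteoglycans are secreted matrix proteins that bind collagen fibrils, and 10 of them were followed here in eyeball RNA of goldfish, Carassius auratus: decorin (dcn), biglycan (bgn), lumican (lum), keratocan (kera), fibromodulin (fmod), osteoglycin (ogn), prolargin (prelp), osteomodulin (omd), epiphycan (epyc) and opticin (optc). A gene model of the deposited expression table counted as a member when the gene name of its best SwissProt match was one of these symbols, alone or with a, b or -like added. The rule found 24 of 56251 models: 5 for lum, 4 for bgn, 3 each for fmod, ogn and epyc, 2 each for dcn and kera, 1 each for prelp and omd, and 0 for optc. They lie on 10 chromosomes and 1 unplaced contig. The names are inferred from protein similarity. For 5 of the 24 the table's second description, the best database hit, names another protein or none, which is stated where those models are described.

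The family falls into classes by sequence and attached sugar. Class I, decorin and biglycan, carries chondroitin or dermatan sulfate chains. Class II, lumican, keratocan, fibromodulin, prolargin and osteomodulin, includes the keratan sulfate carriers of the corneal stroma. Class III holds epiphycan, osteoglycin and opticin. These proteins set the diameter and spacing of collagen fibrils, on which the transparency of the cornea and the stiffness of the sclera depend. Mice without lumican have cloudy corneas, human KERA mutations cause a flattened cornea (cornea plana), and mice lacking both lumican and fibromodulin have abnormally long eyes.

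The series holds 6 libraries of total RNA from whole eyes, 3 named C and 3 named R, from fish aged 1 winter year. The phenotype of the groups is contradictory in the submitters' text. The sample characteristics call C normal and R celestial-eye, a goldfish form with enlarged, upturned eyes, whereas the design text gives normal eyes to R and the celestial form to C. The groups are therefore named by letter only, and every direction below reads C against R, not one phenotype against the other. The design text places the R fish at a farm in Jiangsu and the C fish at a farm in Beijing, so farm, stock and eye form cannot be told apart. It names 3 fish per group, but the labels do not tie a library to a fish, and every p-value therefore rests on library-to-library spread, which may be partly technical. In whole eyes, fewer cells of a type and less RNA per cell also cannot be told apart.

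Values are FPKM, fragment counts that the authors scaled to model length and library size. All values are whole multiples of 1 read's worth within a tolerance of 0.01, which gives 9444623, 9806435 and 11017539 reads in C1 to C3 and 9829134, 10450126 and 11317200 in R1 to R3. The first principal component of the tested genes held 64.1% of the variance and separated C from R, and the second held 14.7% and set C3 apart from C1 and C2. C3 carried the highest sum of red blood cell markers, 23373 FPKM. Results are therefore also given without C3. Differences were tested with limma on log2(FPKM + 1) over the 33907 models at or above 1 FPKM in 3 or more of the 6 libraries, and a model was called at a Benjamini-Hochberg adjusted p under 0.05. By that rule 20.2% of all tested models were called, 8.67% higher and 11.6% lower in C. Leaving out C3, 18.9% were called, 9.33% higher and 9.56% lower.

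Among the proteoglycans, 17 of 24 models reached the level needed for a test. Of these, 6 were higher in C, 0 were lower and 11 were not called, against the background of 8.67% higher and 11.6% lower given above. No member was lower at an unadjusted p under 0.05 either, and limma-voom on the recovered reads also called 6 higher and 0 lower, against 8.94% and 12.7% of all tested models. The 6 were the chromosome 29 copies of lumican and keratocan, prolargin, the chromosome 22 copy of osteoglycin, 1 of 4 biglycan models and the chromosome 4 epiphycan. Without C3, 5 of these 6 remained called and keratocan did not. The 3 C libraries lay wholly above the 3 R libraries for 7 tested members and wholly below for 1; over all tested models these shares were 16.3% and 25.1%. The median log2 fold change was 0.24 over the 17 members and -0.09 over all tested models. Among all tested models, some reached the level needed for a test only through their higher group. Of the members, the lumican models of chromosomes 31 and 36 reached 1 FPKM in every library of their higher group but not in every library of the other.

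**Figure D1:**
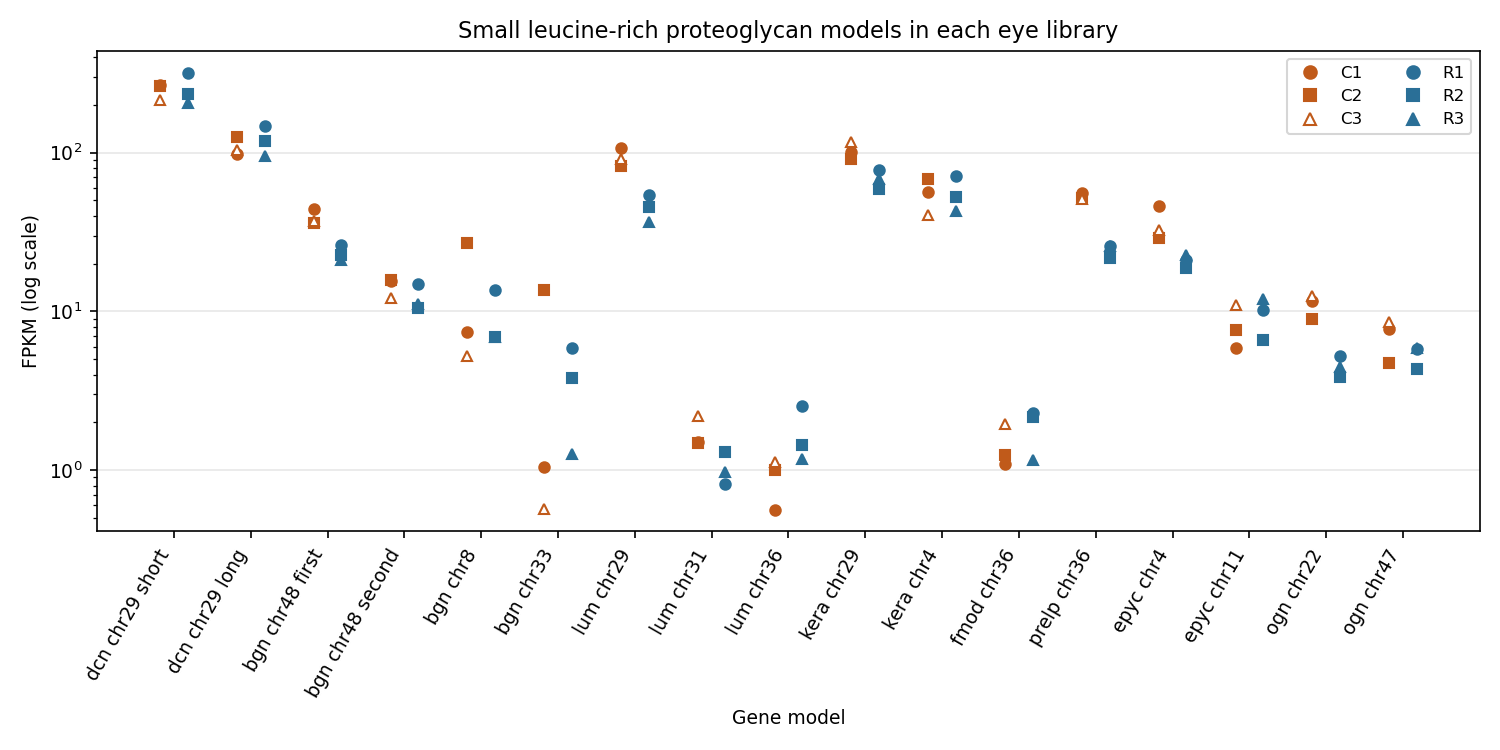
FPKM of each tested proteoglycan model (log axis) in the 6 libraries, with circles, squares and triangles for libraries 1, 2 and 3 and C3 drawn open. The short decorin model lies highest, at 205 to 319 FPKM, and prolargin, at 51.04 to 55.9 FPKM in C and 21.6 to 25.7 in R, has well separated groups.

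Decorin, a binder of collagen I and TGF-beta, was not called in either model. It is split into 2 models on chromosome 29 that lie 23 bases apart on the same strand, which may be parts of 1 gene; this was not tested. The short decorin model (model Cau.29G0005070, chromosome 29:10880097-10880428, minus strand, 249 bases long) stood at 267 FPKM in C1, 265 in C2 and 213 in C3, against 319, 233 and 205 in R1 to R3. R1 was the highest and R3 the lowest, so the C libraries fell inside the R range (limma log2 fold change -0.01 with SE 0.19, adjusted p = 0.985, 95% interval -0.44 to 0.43). The long model (model Cau.29G0005080, chromosome 29:10880452-10892475, minus strand, 1026 bases) stood at 98.6 FPKM in C1, 126 in C2 and 104 in C3, against 147, 118 and 94.99 in R1 to R3, and these also overlapped (limma log2 fold change -0.11 with SE 0.18, adjusted p = 0.692, 95% interval -0.54 to 0.31). The ratio of the short to the long model was 2.71 in C1, 2.10 in C2 and 2.05 in C3, against 2.17, 1.97 and 2.16 in R1 to R3, which overlapped. Over all libraries decorin held 11068 reads, fewer than the 25746 of the longer keratocan models. For the short model, 3 reads are worth 1.06 to 1.28 FPKM.

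Biglycan, the X-linked relative of decorin in mammals, has 4 models that behaved differently. The first of a pair on chromosome 48 (model Cau.48G0004780, chromosome 48:12906585-12908782, minus strand) had 44.2 FPKM in C1, 36.3 in C2 and 37.3 in C3, against 26.4, 22.8 and 21.1 in R1 to R3. Every C library was above every R library, with a C mean of 39.3 ± 4.33 and an R mean of 23.4 ± 2.68 (SD, n = 3 per group), and the model was higher in C (limma log2 fold change 0.72 with SE 0.13, adjusted p = 0.009296; without C3 0.76 with adjusted p = 0.0168). Its neighbour 1599 bases away (model Cau.48G0004790, chromosome 48:12910382-12923579, minus strand) had 15.6 FPKM in C1, 15.7 in C2 and 12.1 in C3, against 14.8, 10.5 and 11.2 in R1 to R3, and the groups overlapped because R1 lay above C3 (limma log2 fold change 0.24 with SE 0.17, adjusted p = 0.3395, 95% interval -0.15 to 0.62). The ratio of the first to the second was 2.83 in C1, 2.32 in C2 and 3.08 in C3, against 1.78, 2.18 and 1.89 in R1 to R3. The groups did not overlap (exact permutation p = 0.1, and 0.183 after adjustment). Both models match human biglycan on the same strand, so they may be parts of 1 gene, which was not tested. The second overlaps an unnamed model on the other strand that holds at most 1 read in any library.

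The other biglycans varied most between libraries of 1 group. The chromosome 8 copy (model Cau.08G0003960, chromosome 8:7954201-7961532, minus strand) had 7.45 FPKM in C1, 27.1 in C2 and 5.21 in C3, against 13.6, 6.93 and 6.94 in R1 to R3, so that C2 was the highest and C1 and C3 among the low values (limma log2 fold change 0.23 with SE 0.53, adjusted p = 0.7904; without C2 the log2 fold change was -0.42, adjusted p = 0.3501). The chromosome 33 copy (model Cau.33G0003450, chromosome 33:7007345-7011294, minus strand) had 1.05 FPKM in C1, 13.7 in C2 and 0.571 in C3, against 5.85, 3.78 and 1.27 in R1 to R3, again with C2 highest and R1 next (limma log2 fold change -0.22 with SE 0.82, adjusted p = 0.871; -1.23 without C2, adjusted p = 0.0966, and 0.38 without C3). Summed skeletal muscle markers stood at 2497 FPKM in C1, 4531 in C2 and 1230.0 in C3, against 2160, 2390 and 2166 in R1 to R3. C2 was thus the highest here too, but C1 came next. Summed leukocyte markers (3776 FPKM) and endothelium markers (70.1 FPKM) were also highest in C2, with C1 close behind at 3513 and 68.2 FPKM. The summed keratocyte and fibroblast markers were likewise highest in C2, at 442 FPKM against 273 to 396 in the others. Other sums peaked elsewhere. Scleral cartilage markers (1537 FPKM) and collagen partners (4576) were highest in C1, and red blood cell (23373) and photoreceptor markers (40076) in C3. Corneal epithelium and lens markers were highest in R libraries. The part of these tissues in the biglycan values was not tested.

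**Figure D2:**
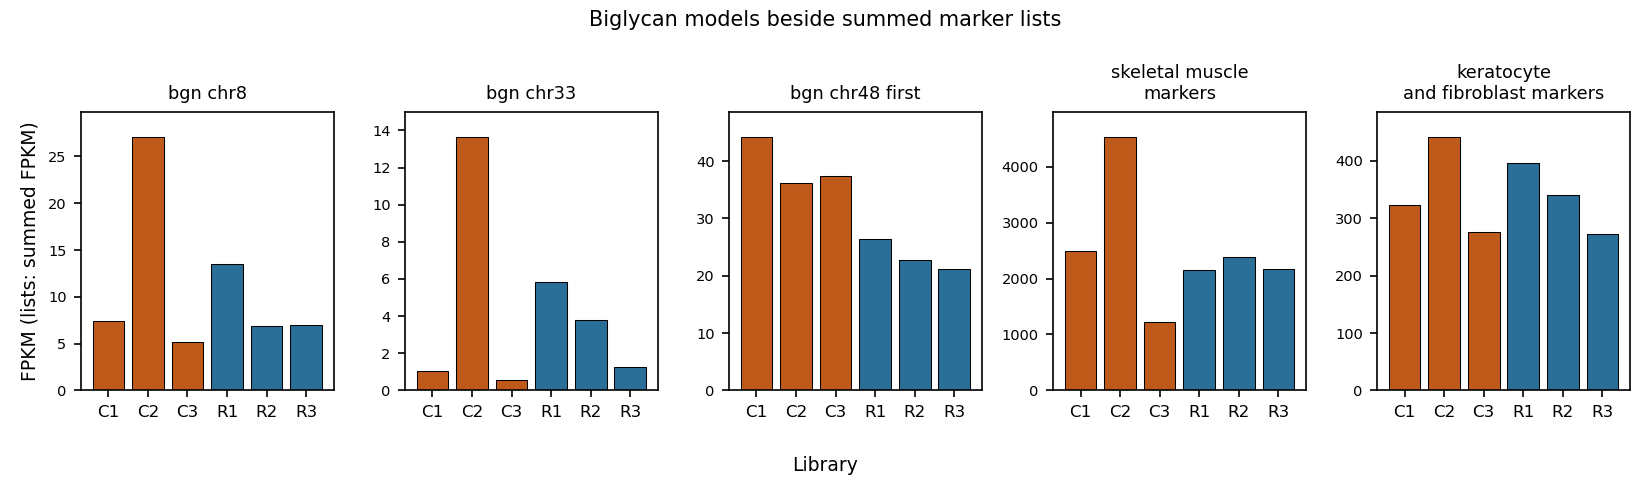
FPKM by library (bars, linear axis) of the chromosome 8, chromosome 33 and first chromosome 48 biglycan models. Further panels give the summed FPKM of the skeletal muscle markers and of the keratocyte and fibroblast markers. The second chromosome 48 model is not drawn. The first chromosome 48 model separates C (36.3 to 44.2) from R (21.1 to 26.4), whereas C2 is far above C1 and C3 for the chromosome 8 and 33 models.

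Lumican, the main keratan sulfate core protein of the cornea, was higher in C in its dominant copy, with a ratio of group means of 2.07. That copy (model Cau.29G0005060, chromosome 29:10870632-10878931, minus strand) had 108 FPKM in C1, 82.5 in C2 and 91.3 in C3, against 53.8, 45.5 and 36.5 in R1 to R3. C1 was the highest, C3 lay between C1 and C2, and no R library reached the lowest C value. These gave a C mean of 93.8 ± 12.7 and an R mean of 45.3 ± 8.67 (SD, n = 3 per group), and the copy was higher in C (limma log2 fold change 1.04 with SE 0.17, adjusted p = 0.00591; without C3 1.06 with adjusted p = 0.0149). It supplied 94.0% to 97.9% of all lumican FPKM in every library.

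The remaining lumican models were low. On chromosome 36 (model Cau.36G0005660, chromosome 36:13273979-13277785, plus strand) the values were 0.565 FPKM in C1, 0.997 in C2 and 1.13 in C3, against 2.53, 1.45 and 1.18 in R1 to R3, the only tested member with every C library below every R library, though it was not called (limma log2 fold change -0.50 with SE 0.24, adjusted p = 0.178). The chromosome 31 model (model Cau.31G0001680, chromosome 31:4072257-4074528, minus strand), whose best database hit is a platelet glycoprotein Ib alpha chain, had 1.495 FPKM in C1, 1.49 in C2 and 2.197 in C3, against 0.821, 1.303 and 0.9803 in R1 to R3 (limma log2 fold change 0.42 with SE 0.19, adjusted p = 0.163). A chromosome 4 model described as podocan-like held 0 to 4 reads per library, and the contig model held none. These last were not tested.

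Keratocan, the keratan sulfate proteoglycan typical of corneal keratocytes, has copies on chromosomes 29 and 4, and only the former was called. The chromosome 29 copy (model Cau.29G0005050, chromosome 29:10844602-10870486, minus strand; its best database hit is an epiphycan) had 101 FPKM in C1, 91.3 in C2 and 116 in C3, against 77.6, 58.7 and 68.4 in R1 to R3. C3 was the highest and the groups did not overlap, with a C mean of 103 ± 12.7 and an R mean of 68.2 ± 9.44 (SD, n = 3 per group; limma log2 fold change 0.59 with SE 0.15, adjusted p = 0.0313). The call was lost in 5 alternatives: adjusted p was 0.0631 without C3, 0.0801 without C1, 0.116 without R2, 0.0787 without R3 and 0.0891 after quantile normalization. The chromosome 4 copy (model Cau.04G0005310, chromosome 4:10458542-10488808, minus strand; the hit is an unnamed protein) had 56.7 FPKM in C1, 68.2 in C2 and 40.7 in C3, against 71.01, 52.4 and 42.9 in R1 to R3, with C3 and R3 lowest and R1 highest (limma log2 fold change -0.01 with SE 0.24, adjusted p = 0.987, 95% interval -0.55 to 0.54). The share of keratocan FPKM from chromosome 29 was 57.2% to 74.1% in C and 52.2% to 61.5% in R, which overlapped.

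The lumican, keratocan and decorin copies sit side by side. On chromosome 29 keratocan, lumican and the decorin models follow each other on the minus strand in 1 uninterrupted row, with 145 bases between keratocan and lumican. In that row the ratio of the long decorin model to lumican was 0.916 in C1, 1.53 in C2 and 1.14 in C3, against 2.73, 2.59 and 2.61 in R1 to R3, and that of the long decorin model to keratocan was 0.978 in C1, 1.38 in C2 and 0.893 in C3, against 1.89, 2.01 and 1.39 in R1 to R3. The short decorin model stood at 5.11 to 5.93 times lumican in R and at 2.34 to 3.21 times in C. On chromosome 4 epiphycan and keratocan lie 1475 bases apart on the minus strand. An unnamed model on the plus strand overlaps this keratocan (model Cau.04G0005320, 10471843-10482740) and had 229 FPKM in C1, 219.8 in C2 and 188 in C3, against 123, 115 and 91.9 in R1 to R3, higher in C (limma log2 fold change 0.94 with SE 0.15, adjusted p = 0.00533); it was singled out after its values were seen. No strand setting was found in the labels, so reads of these overlapping models may not be separated.

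**Figure D3:**
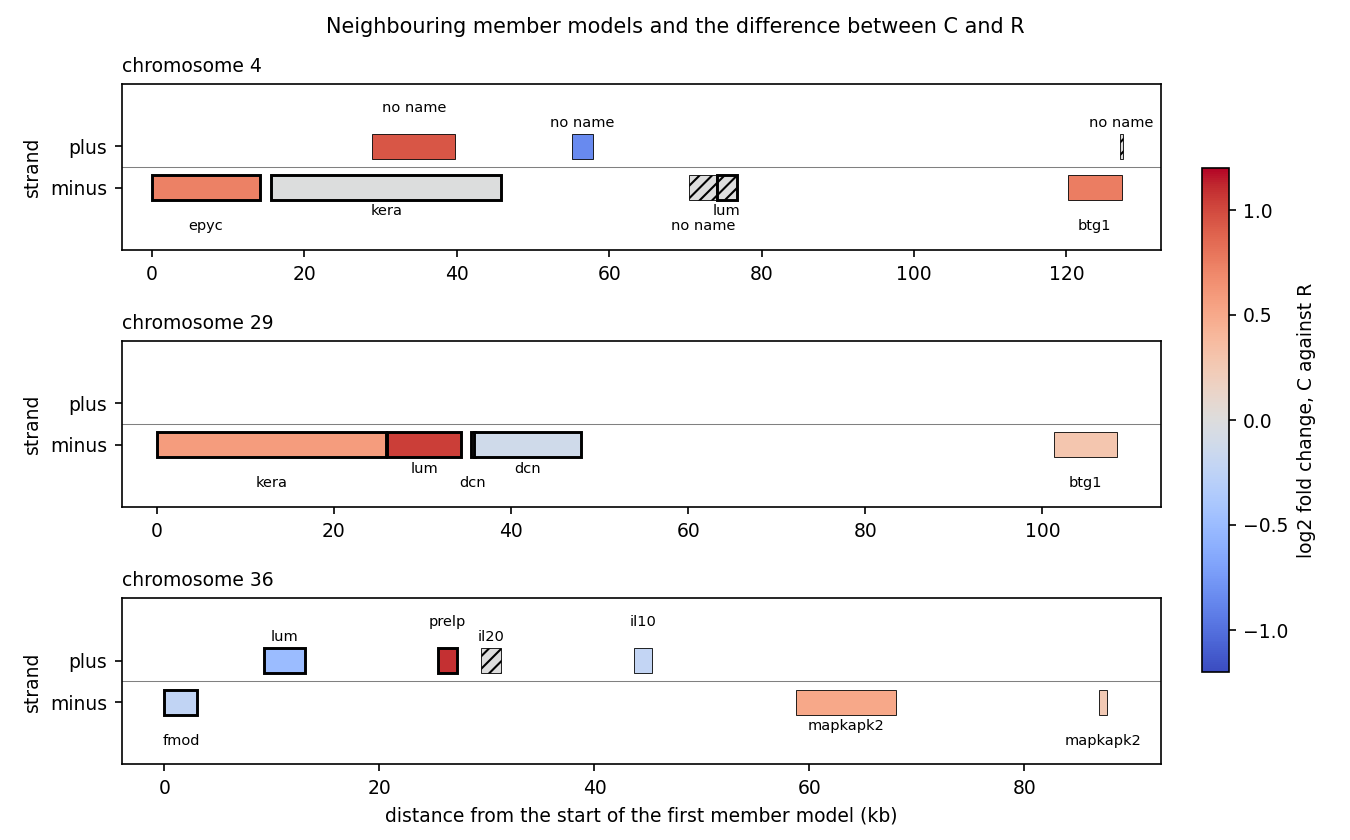
Position, in kb from the first member model, of the models around the lumican, keratocan and decorin copies on chromosomes 4, 29 and 36, by strand. Thick outlines mark members, colour gives the log2 fold change of C against R, and hatching marks models that were not tested; lumican (1.04) and decorin (-0.11 for the long model) differ in colour within the chromosome 29 row.

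Prolargin, a heparin-binding member that anchors basement membranes to connective tissue, had the smallest adjusted p of the family. Its single model (model Cau.36G0005670, chromosome 36:13290159-13291919, plus strand) had 55.9 FPKM in C1, 51.9 in C2 and 51.04 in C3, against 25.7, 21.6 and 25.7 in R1 to R3, which gives a C mean of 52.9 ± 2.59 and an R mean of 24.3 ± 2.37 (SD, n = 3 per group). All C libraries, C3 included, lay above all R libraries, and the ratio of means was 2.18 (limma log2 fold change 1.09 with SE 0.12, adjusted p = 0.00108; without C3 1.12 with adjusted p = 0.00295). Fibromodulin and a lumican lie beside it on chromosome 36. Fibromodulin, which regulates collagen cross-linking in tendon, was low (model Cau.36G0005650, chromosome 36:13264746-13267802, minus strand), at 1.09 FPKM in C1, 1.24 in C2 and 1.96 in C3, against 2.29, 2.16 and 1.16 in R1 to R3, with overlapping groups (limma log2 fold change -0.23 with SE 0.24, adjusted p = 0.5204). Its 2 chromosome 33 models held 1 read in all, in R3. Osteomodulin, a keratan sulfate protein of mineralised tissue, had 1 model on chromosome 47 with 10, 5 and 4 reads in C1 to C3 and 7, 2 and 3 in R1 to R3, too few to test.

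Osteoglycin, also named mimecan, a keratan sulfate carrier in the cornea, differed between its copies. The chromosome 22 copy (model Cau.22G0008920, chromosome 22:24232034-24236918, plus strand) had 11.7 FPKM in C1, 8.89 in C2 and 12.5 in C3, against 5.24, 3.88 and 4.49 in R1 to R3, every C library above every R library and C3 the highest. These gave a C mean of 11.02 ± 1.88 and an R mean of 4.54 ± 0.683 (SD, n = 3 per group), and it was higher in C (limma log2 fold change 1.11 with SE 0.17, adjusted p = 0.00396; without C3 1.03 with adjusted p = 0.0109). The chromosome 47 copy (model Cau.47G0002560, chromosome 47:5092361-5096819, minus strand) had 7.699 FPKM in C1, 4.699 in C2 and 8.63 in C3, against 5.79, 4.34 and 5.92 in R1 to R3, with C2 below R1 and R3 (limma log2 fold change 0.31 with SE 0.22, adjusted p = 0.355, 95% interval -0.20 to 0.82). The ratio of the chromosome 22 to the chromosome 47 copy was 1.52 in C1, 1.89 in C2 and 1.45 in C3, against 0.906, 0.893 and 0.759 in R1 to R3, so the first was the larger in all C libraries and the smaller in all R libraries. The second osteoglycin model of chromosome 22 held no read in any library; for it, 3 reads, the limit that a count of 0 allows per library, would be 0.182 to 0.218 FPKM.

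Epiphycan, a dermatan sulfate protein of cartilage, was measured on chromosomes 4 and 11. The chromosome 4 model (model Cau.04G0005290, chromosome 4:10442937-10457066, minus strand; its best database hit is a collagen IV alpha-2 chain) had 46.4 FPKM in C1, 29.03 in C2 and 32.7 in C3, against 21.1, 18.7 and 22.6 in R1 to R3. C1 was the highest and the lowest C library stood above the highest R library, with a C mean of 36.04 ± 9.13 and an R mean of 20.8 ± 1.93 (SD, n = 3 per group; limma log2 fold change 0.74 with SE 0.18, adjusted p = 0.0266; without C3 0.79 with adjusted p = 0.0409). The call was lost without C1 (adjusted p = 0.0522), R1 (0.0747), R2 (0.0988) or R3 (0.0553). The chromosome 11 model (model Cau.11G0007120, chromosome 11:17814360-17817984, plus strand) had 5.91 FPKM in C1, 7.59 in C2 and 10.9 in C3, against 10.2, 6.64 and 11.96 in R1 to R3, overlapping throughout (limma log2 fold change -0.21 with SE 0.26, adjusted p = 0.586, 95% interval -0.81 to 0.38). The remaining model on chromosome 36 held 0 to 2 reads per library.

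**Figure D4:**
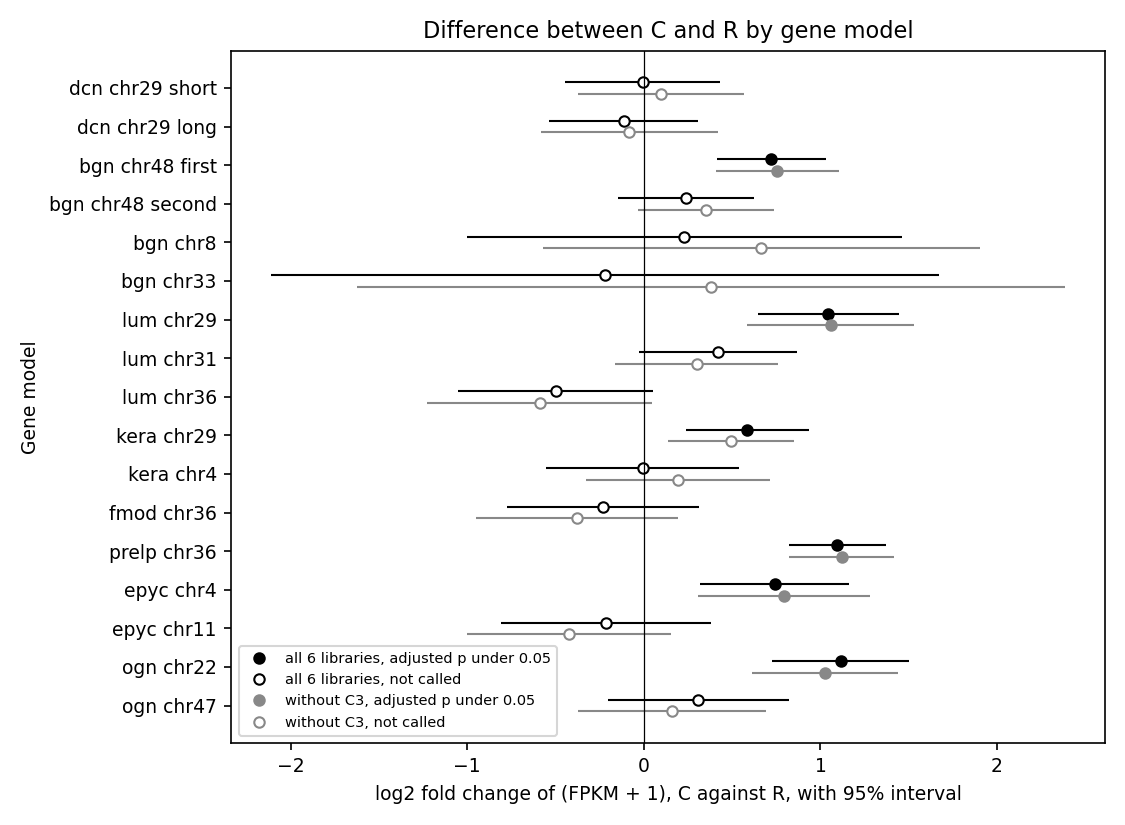
Log2 fold change of FPKM + 1, C against R, with 95% interval for the 17 tested models, from all 6 libraries (black) and without C3 (grey); filled points passed an adjusted p under 0.05. Prolargin, lumican on chromosome 29 and osteoglycin on chromosome 22 lie above 1, at 1.09, 1.04 and 1.11.

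Summed over copies, the family amounted to 831 FPKM in C1, 832 in C2 and 742 in C3, against 803, 612 and 563 in R1 to R3, or a C mean of 802 ± 51.3 and an R mean of 659 ± 127 (SD, n = 3 per group). R1 lay between the C values, so the groups overlapped, but only through the 249-base decorin model. Without it the sums were 564 FPKM in C1, 567 in C2 and 529 in C3, against 484, 379 and 358 in R1 to R3, every C above every R, and the log2 ratio of means was 0.44 instead of 0.28. By read number it took 0.108% ± 0.00431 of the reads of C libraries and 0.0800% ± 0.0132 of those of R libraries (SD, n = 3 per group). The sums of lumican, keratocan, osteoglycin, prolargin and epiphycan were higher in all C than in all R libraries. For each of them the two-sided exact permutation test gave p = 0.1, the smallest that 3 against 3 allows, and 0.18 after Benjamini-Hochberg adjustment over the 9 names. Among single tested models of all genes 16.3% had every C above every R, and no such share was computed for sums. The prolargin sum is 1 model, and 1 copy gave 94.0% to 97.9% of the lumican sum. Lumican had a C mean of 96.5 ± 12.5 and an R mean of 48.1 ± 9.27 (SD, n = 3 per group), keratocan a C mean of 158 ± 1.22 and an R mean of 124 ± 21.6 (SD, n = 3 per group) and osteoglycin a C mean of 18.03 ± 3.93 and an R mean of 9.88 ± 1.48 (SD, n = 3 per group). Decorin had a C mean of 358 ± 37.2 and an R mean of 372 ± 84.9 (SD, n = 3 per group; exact permutation p = 0.9), biglycan a C mean of 72.1 ± 19.0 and an R mean of 48.4 ± 10.7 (SD, n = 3 per group; exact permutation p = 0.2), and both overlapped. The low names, fibromodulin (exact permutation p = 0.3) and osteomodulin (exact permutation p = 0.5), overlapped as well. The epiphycan sum rests on the chromosome 4 model: without it the log2 ratio of the sums was -0.22 instead of 0.54. Both keratocan models have a best database hit that is not keratocan, so no keratocan sum remains without models of another description. Leaving out all such models gave a log2 ratio of 0.24 for the family sum.

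**Figure D5:**
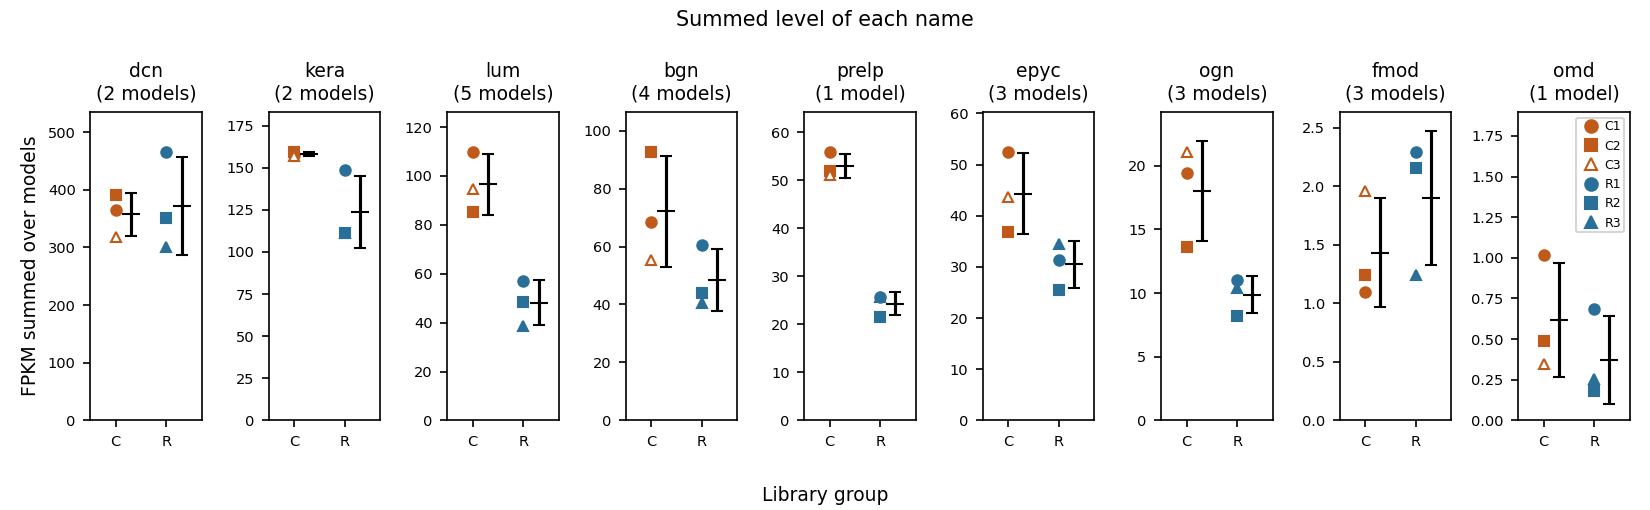
Summed FPKM of the copies of each name by library, C3 open, with the mean and SD of each group beside the points; each panel has its own scale from 0. Lumican, keratocan, prolargin, epiphycan and osteoglycin have every C library above every R library, and decorin does not.

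Per length, decorin led in both groups when its 2 models were added, followed by keratocan. That lead rests on the 249-base model: the long decorin model alone averaged 109.5 FPKM in C and 119.8 in R, below keratocan at 158 and 124, and in R that gap is within the SDs. In C keratocan was followed by lumican, biglycan, prolargin, epiphycan, osteoglycin, fibromodulin and osteomodulin. In R it was followed by biglycan, lumican, epiphycan, prolargin and osteoglycin, with the same low names last, and biglycan (48.4) and lumican (48.1) differed there by less than their SDs. The composition differed accordingly. Decorin made up 44.6% ± 2.17 of summed proteoglycan FPKM in C and 56.2% ± 2.49 in R, lumican 12.1% ± 1.61 and 7.31% ± 0.551, and prolargin 6.61% ± 0.333 and 3.76% ± 0.714 (SD, n = 3 per group). Without the 249-base model decorin made up 19.8% ± 2.38 in C and 29.3% ± 2.41 in R. With all models keratocan kept 18.2% to 21.2% in every library. The shares are parts of 1 sum per library, so a share can fall where others rise. They were not tested, and the decorin sum itself overlapped between the groups. Of 22 ratios between copies of 1 name or close neighbours, 12 did not overlap between the groups. Each of these had exact permutation p = 0.1, and 0.183 after adjustment over the 22. Many of the ratios share a model, so they are not separate observations. Levels of single models did not overlap for 41.4% of all tested models, and no such share was computed for ratios over all models.

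Most enzymes that build the sugar chains were not called: the share called was 10.7% for linkage and sugar supply, 10% for chondroitin and dermatan chains and 35% for keratan chains, against 20.2% of all tested models. Chains on decorin and biglycan start from a xylose linker. Of 28 tested models for linkage and sugar supply, 2 were higher in C and 1 lower (median log2 fold change 0.06). UDP-glucose dehydrogenase on chromosome 1 (ugdh), which makes UDP-glucuronic acid, was higher at 21.7 FPKM in C1, 21.3 in C2 and 20.2 in C3, against 11.1, 9.14 and 11.9 in R1 to R3 (limma log2 fold change 0.92 with SE 0.13, adjusted p = 0.00277). UDP-xylose synthase (uxs1) has a pair of low chromosome 34 models that went opposite ways. The 672-base model had 1.73, 1.52 and 2.84 FPKM in C1 to C3, against 0.757, 0.142 and 0.526 in R1 to R3. Its limma log2 fold change was 1.04 (adjusted p = 0.0237, and 0.0532 without C3). It was under 1 FPKM in every R library, so it was tested only through C. The 873-base model had 1.33, 1.64 and 1.77 FPKM in C1 to C3, against 4.08, 5.48 and 3.04 in R1 to R3. Its limma log2 fold change was -0.99 (adjusted p = 0.0157). Of 30 chondroitin and dermatan chain models, 2 were higher and 1 lower (median -0.07). The higher ones were the sulfotransferases chst12 (log2 fold change 1.75) and chst15 (0.83; adjusted p = 0.0341, and 0.0649 without C3), and the lower one was the polymerase chsy1 (-0.97).

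Keratan sulfate enzymes had 7 of 20 tested models called, with 3 higher and 4 lower in C and a median of -0.09. b4galt1 on chromosome 39, a galactosyltransferase, was higher at 102 FPKM in C1, 85.95 in C2 and 86.2 in C3, against 56.6, 42.5 and 34.2 in R1 to R3 (limma log2 fold change 1.05 with SE 0.19, adjusted p = 0.00823). chst2 on chromosome 2, an N-acetylglucosamine sulfotransferase, was higher at 13.6 FPKM in C1, 15.3 in C2 and 15.1 in C3, against 6.33, 7.16 and 5.83 in R1 to R3 (limma log2 fold change 1.08 with SE 0.13, adjusted p = 0.00144). chst6, whose human form sulfates corneal keratan and is mutated in macular corneal dystrophy, was lower at 1.26 FPKM in C1, 2.28 in C2 and 1.76 in C3, against 8.19, 7.28 and 5.601 in R1 to R3 (limma log2 fold change -1.54 with SE 0.20, adjusted p = 0.00235). The others, named after their values were seen, were b3gnt2 on chromosome 42, higher by 0.96, and the lower chst1 (-0.80) and 2 chromosome 22 copies of b3gnt7 (-1.19 and -1.07), the chain-extending transferase. Other tested copies of b4galt1 and b3gnt2 were not called, so these differences belong to single copies and not to the names as a whole.

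Other leucine-rich proteoglycans, such as asporin and podocan, had 1 of 14 tested models higher and 0 lower (3 and 0 at an unadjusted limma p under 0.05, 1 and 0 by limma-voom), with a median of 0.11. The share called was 7.14%, against 20.2% of all tested models. The model that passed was podocan on chromosome 23 (limma log2 fold change 0.77 with SE 0.12, adjusted p = 0.00513). The collagens that these proteins bind, with the fibril-associated types XII and XIV, had 12 of 55 tested models higher and 3 lower, and 18 and 2 without C3 (median 0.22, and 0.39 without C3). The share called was 27.3%, against 20.2% of all tested models. Over all tested models 8.67% were higher and 11.6% lower, and 9.33% and 9.56% without C3. The collagen I chain col1a1 on chromosome 28 was higher at 916 FPKM in C1, 816 in C2 and 731 in C3, against 375, 225 and 244 in R1 to R3 (limma log2 fold change 1.57 with SE 0.21, adjusted p = 0.00249). A short col12a1 model of 339 bases on chromosome 17 was higher, with a log2 fold change of 1.58. It had 40.3 FPKM in C1, 22.3 in C2 and 45.8 in C3, against 11.4, 9.32 and 12.3 in R1 to R3. A chromosome 4 model named col14a1, whose best hit is a collagen VII chain, was lower, with a log2 fold change of -1.25. It had 0.267 to 0.679 FPKM in C and 2.51 to 2.59 in R, so it was tested only through R. The list's sum was 4576 in C1, 4519.7 in C2 and 3368 in C3, against 2099 to 2966 in R.

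Markers of the tissues that could carry these transcripts were called at shares from 2.703% (skeletal muscle) to 59.4% (corneal epithelium), against 20.2% of all tested models. Photoreceptor markers summed to 30791 to 40076 FPKM in C and 28068 to 33068 in R and lens markers to 9752 to 16981 FPKM in C and 20162 to 21389 in R, so both tissues of the labelled eye are present in every library. Keratocyte and fibroblast markers had 6 of 33 tested models higher and 4 lower. The list summed to 277 to 442 FPKM in C and 273 to 396 in R, which overlapped. At an unadjusted limma p under 0.05 it had 8 higher and 7 lower, and by limma-voom 5 and 5. Its median limma log2 fold change was -0.02. The 3 called models with the smallest p were all higher in C: pdgfrl (log2 fold change 2.67) and the aldh1a2 copies on chromosomes 32 (0.91) and 7 (0.62). The pdgfrl model had 6.07 to 9.32 FPKM in C and 0.277 to 0.484 in R, so it was tested only through C. Scleral cartilage markers had 7 of 24 higher and 3 lower, summing to 1118 to 1537 FPKM in C and 798 to 1018 in R. Their leading called models were ucma on chromosome 29, higher in C, and 2 matn4 copies on chromosome 31 (log2 fold changes 2.34 and 2.11), cartilage matrix proteins, while a chromosome 25 ucma was lower, at a log2 fold change of -1.74. The matn4 copies had 4.96 to 8.64 and 2.50 to 4.94 FPKM in C. In R they had 0.419 to 0.754 and 0.0286 to 0.0529 FPKM, so they were tested only through C. Corneal epithelium markers had 5 of 32 higher and 14 lower, summing to 1322 to 1964 FPKM in C and 2345 to 3098 in R; the leading ones were a krt18 copy on chromosome 23, epcam on chromosome 13 and cdh1 on chromosome 7, with log2 fold changes of -4.22, -2.81 and -2.78. Copies of the same names went the other way: krt18 was higher in another chromosome 23 copy (1.78), on chromosome 48 (0.82) and in 2 copies on chromosome 6 (0.80 and 0.59). An epcam model on chromosome 38 was also higher, at 1.03, 3.12 and 4.41 FPKM in C1 to C3 and without a read in R. It was thus tested only through C. The lower chromosome 23 krt18 and chromosome 13 epcam were under 1 FPKM in every C library, and were tested only through R. Skeletal muscle had 1 of 37 higher and 0 lower (4 and 4 at an unadjusted limma p under 0.05, 1 and 1 by limma-voom). Lens had 1 of 27 higher and 14 lower, photoreceptors 5 and 2 of 17, leukocytes 0 and 4 of 20 (1 higher at an unadjusted limma p under 0.05, 0 by limma-voom), endothelium 1 and 0 of 8 (1 and 0 by both), and red blood cells 5 and 0 of 9 (8 and 0 at an unadjusted p under 0.05, 5 and 0 by limma-voom). Without C3 the keratocyte and fibroblast list had 7 higher and 1 lower, skeletal muscle 5 and 0, and red blood cells 2 and 0. No listed symbol with a model was at 0 in all 6 libraries. The part of tissue makeup in the proteoglycan differences was not tested.

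By profile over the 6 libraries, among 7768 named models with at least 10 FPKM on average, the short decorin model was closest to mmp2, a gelatinase, with a root mean square difference of centred log2(FPKM + 1) values of 0.0763. Next came mrpl23, cyba, gigyf1 and id2-a, up to 0.0875. The chromosome 29 keratocan was closest to cdk10 (0.0536), then ppp1r15b, bckdk, clta and atp5mg, up to 0.0693. With 6 libraries in 2 groups these are descriptions of likeness only.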

How the data were processed

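Total RNA of 6 goldfish eye samples, 3 µg each after Trizol extraction, was made into Illumina TruSeq libraries, per the labels' protocols. The submitters' processing notes name Bowtie 0.12.5, TopHat2 2.0.9, DESeq 1.10.1 and a pig genome build, without saying what each was used for. Assembly, counter and strand option were not given in the sources used here. Coordinates are those of the deposited table. The values deposited by the authors are FPKM per gene model; 2 further tables, 1 per group, repeat the same values in all 6 columns.

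FPKM were used as deposited. All values were whole multiples of 1 read within a tolerance of 0.01, so reads per model and library were recovered for limma-voom, floors and depth; floors of 3 reads cover counting error only, while the printed 95% intervals are limma's, from the spread between libraries. The main test was limma 3.58.1 in R 4.3.3 (lmFit, then eBayes with trend and robust settings) on log2(FPKM + 1), over models at or above 1 FPKM in 3 or more of the 6 libraries, with Benjamini-Hochberg adjustment over all 33907; a fold change on this scale understates that of low models. Sums and ratios were compared by two-sided exact permutation tests. The code was tested on simulated data.

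Members and lists were chosen with earlier results of these data known. Every tested member was described; in each list the 3 called models with the smallest p, and copies of the same name called the other way, were named, except that lists of tissues away from stroma and cartilage are given mainly by counts. Copies similar in sequence may share reads. Alternatives were other pseudocounts, filters and scalings, a replicate block, limma-voom, and leaving out each library. No sequences were used here.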

Additional observations from a re-analysis of the deposited data

How the results depend on the processing

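Over all genes 6864 models were called as reported; requiring a mean of at least 5 FPKM left 3670, leaving out 1 library gave 3557 to 6404 (4145 without C1, 3992 without R1, 3557 without R2 and 4520 without R3), and limma-voom gave 7349. Setting the median log2 ratio to 0 gave 3736 higher and 3449 lower, and quantile normalization 3460 and 3527, against 2939 and 3925. The fit with a replicate block called 5971 models and the same number of proteoglycans, 6. Same-numbered libraries had deviation correlations of -0.00523, 0.0989 and 0.0394, and differently numbered ones -0.112 to 0.0673. Deviations were taken from the mean of only 3 libraries per group, so these values cannot decide whether the numbers pair the samples. The proteoglycan count was 4 to 6 when 1 library was left out and 5 after quantile normalization. The calls of lumican, prolargin, osteoglycin and biglycan held under every alternative run; those of keratocan and epiphycan did not, as given above. The log2 ratio of the family sum was 0.44 without models under 500 bases and 0.18 to 0.45 with 1 library left out. Only values that were not called changed sign. With 1 library left out the log2 fold changes ranged over -1.23 to 0.38 for the chromosome 33 biglycan, -0.42 to 0.67 for the chromosome 8 biglycan, -0.17 to 0.19 for the chromosome 4 keratocan, -0.14 to 0.17 for the short decorin and -0.27 to 0.0418 for the long decorin. With a pseudocount of 5 the chromosome 33 biglycan was at 0.0241, and with the median set to 0 the chromosome 4 keratocan and the short decorin were at 0.0759 and 0.0762. The log2 ratio of summed epiphycan was -0.22 when models with another description, the chromosome 4 copy, were left out. The cause of these changes was not tested. The edgeR and DESeq2 alternatives were not run, because the values are FPKM; limma-voom on recovered reads and the fits without models of another description were chosen after seeing the data. Models with under about 3 reads per library cannot show a difference at this depth.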
